A study of Mus musculus with 20 samples.

Results

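The Janus kinases and the proteins that restrain them were followed as N6-methyladenosine (m6A) peaks on their messenger RNAs. The set held 9 genes: the kinase genes Jak1, Jak2, Jak3 and Tyk2, the inhibitor genes Socs1, Socs2, Socs3 and Cish, and the phosphatase gene Ptpn2. Rows of the deposited peak tables were taken where their gene symbol was one of these, which gave 22 of 25992 peaks, 15 of them in invariant natural killer T (iNKT) cells and 7 in CD4 and CD8 double-positive (DP) thymocytes. By their coordinates only 13 of the 22 lay within the gene they were named after, 9 in iNKT cells and 4 in DP thymocytes. A further 3 peaks, named after the neighbouring gene Insl6, lay within Jak2, and they are described with the others.

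Cells came from mice labelled Mettl3fl/flCD4-cre, in which Cre driven by Cd4 removes floxed Mettl3, the gene of the catalytic subunit of the m6A writer, and from mice labelled WT. Whether the WT mice carried a floxed allele or the Cre is not stated. All mice were C57BL/6 and 6 to 8 weeks old, and how many were pooled for a library is not stated. Thymic iNKT cells, sorted as binding the CD1d tetramer and carrying the T cell receptor beta chain, gave 3 m6A immunoprecipitates and 3 inputs per genotype. DP thymocytes, sorted as tetramer-negative, gave 2 of each per genotype, for 20 libraries in all. CD4-cre acts from about the DP stage on, and the loss of Mettl3 itself was not measured here. The labels name a standard m6A protocol and a low-input one and assign neither to a cell type, so any effect of protocol cannot be told apart from that of cell type.

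Janus kinases sit on the inner tails of cytokine receptors. When a cytokine binds, they phosphorylate the receptor and the STAT transcription factors, which then enter the nucleus. SOCS proteins are made in response to STATs and close the loop: they bind the kinase or the receptor, block signalling and recruit a ubiquitin ligase. Ptpn2 removes phosphate from Janus kinases and STATs. In the thymus this circuit carries interleukin-7 and interleukin-15 signals, on which iNKT cells depend. m6A is found mostly near stop codons and in 3' untranslated regions (UTRs), and marked transcripts tend to be degraded sooner. In mouse CD4 T cells, Socs1, Socs3 and Cish transcripts are known to carry m6A.

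Cish and Socs3 are induced by STATs, and stretches of their promoters are shown because each holds the palindrome that STAT dimers bind, TTCNNNGAA. The stretches are from RefSeq on GRCm38.p6, 5′ to 3′, with the motif in capitals.
Cish, chr9:107296654-107296683, plus strand: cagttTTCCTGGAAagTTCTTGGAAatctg
Socs3, chr11:117969502-117969531, minus strand: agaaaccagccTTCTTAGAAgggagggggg
The Cish stretch holds 2 matches, at offsets of 0 and 11 bases from the gene start on which its promoter window is set, which is also that of the span used to place peaks. The Socs3 match begins at an offset of -154, upstream of the gene start on which its window is set. The Socs3 span used to place peaks starts further upstream, at 117970336, so the match lies inside that span, between exonic blocks of the 5' UTR peak described with Socs3. Windows of 300 bases, from 250 before to 50 after the start, were found for 7 of the 9 genes, and those of Jak1, Jak2, Jak3, Socs1 and Tyk2 held no match. The motif reads the same on both strands, and 8.3% of 32851 such windows of all genes held it. A match is a description of the letters, and binding was not measured.

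Values per library were not analysed here, so no replicate spread stands beside the values and the depth is unknown. The fold enrichment over input, the log2 fold change between genotypes and the false discovery rate (FDR) of that change are those of the authors' deposited table. Whether their p-values include differences between mice is not stated, and neither is the sign of the fold change. Of 5343 iNKT genes with at least 1 negative peak, 5339 stand in the authors' deposited gene list, against 0 of 1431 genes without one. In DP cells the counts were 4336 of 4337 and 0 of 2281. Since the deletion removes an m6A writer, a negative value is read here as methylation that was likely lower in Mettl3-deleted than in WT cells, and "lower" and "fell" carry that reading. If the sign ran the other way, each direction given here would turn.

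As a check of the sorts, the 7 iNKT marker genes chosen (Zbtb16 and Cxcr3 among them) all had a peak in the iNKT table, and 2 of 7 had one in the DP table. Of 8 DP markers, 3 had a peak in the iNKT table (Rag1, Cd8a and Cd8b1) and 4 in the DP table (these and Cd4), while Rag2, Ptcra and Dntt had none in either. A peak needs both the transcript and the mark, so its absence does not show that a gene was silent. Of 9 markers of B cells, myeloid cells and thymic epithelium, 1 had a peak in the iNKT table and 1, the myeloid marker Itgam, in the DP table, and the part of such cells in the results was not tested.

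In iNKT cells, a peak in the 3' UTR of each of Jak1, Socs3 and Cish fell after Mettl3 deletion, and so did one in Jak2. Among the 9 peaks within the gene they were named after, the FDR of the authors' deposited table was at most 0.05 for 3 lower peaks and 0 higher ones. With Jak2 the count was 4 lower of 10. Of all 12542 iNKT peaks, 19.8% were lower and 5.84% higher. All 4 lay in the 3' UTR, as the authors annotated it, which held 6 of the 10 peaks and 45.3% of all iNKT peaks. The share of 3' UTR peaks among all lower iNKT peaks was not counted. The median log2 fold change was -0.716 over the 9 peaks and -0.844 with Jak2, against -0.976 over all peaks of the authors' deposited table for iNKT cells.

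**Figure D1:**
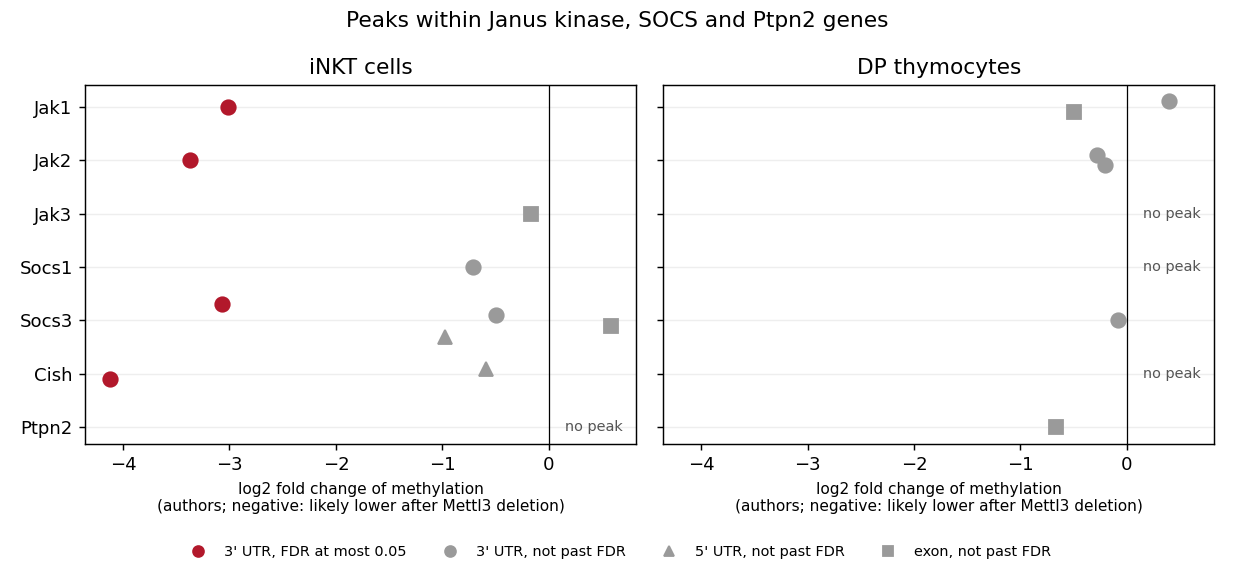
Log2 fold change of methylation between genotypes (authors' values, horizontal axis) for each peak that lies within a member gene, in iNKT cells (left) and DP thymocytes (right); each symbol is 1 peak, red where its FDR was at most 0.05. The 4 red iNKT peaks lie between -4.12 and -3.01, while the 6 DP peaks lie between -0.663 and 0.396 and none passed.

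Among the kinases, Jak1 is the partner of most cytokine receptors of lymphocytes. Its 3' UTR peak in iNKT cells (chr4:101153057-101153267, minus strand, 211 nt) was 8.22-fold enriched over input and fell by 3.01 on the log2 scale, with an FDR of 1.5e-07, per the authors' deposited table. Its enrichment was near the iNKT median of 8.32, and its peak p was smaller than that of 89.4% of iNKT peaks. In DP thymocytes a peak at chr4:101153087-101153326 shared 181 nt with it, and the authors' deposited table gave it 0.396 on the log2 scale (FDR 0.61). A second DP peak of Jak1, over 2 exonic blocks annotated as exon 7 of 25 (chr4:101177643-101179701), had -0.494 there (FDR 0.16, unadjusted p 0.0055, authors' deposited table). No iNKT peak was listed at that exon.

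Jak2 acts with receptors such as those for interferon gamma and interleukin-12. No row bears its name, since the peaks within it, annotated as 3' UTR, carry the symbol of Insl6, a relaxin-family gene next to Jak2. The iNKT peak (chr19:29311793-29312002, plus strand, 210 nt) was 9.64-fold enriched and fell by 3.37 on the log2 scale, with an FDR of 5.1e-05, per the authors' deposited table. In DP thymocytes one Insl6-named peak spanned 5 exonic blocks (chr19:29301685-29311913, 630 nt) and shared 121 nt with the iNKT peak. The authors' deposited table gave this DP peak -0.276 (FDR 0.55), and the other one (chr19:29312691-29312900) -0.207 (FDR 0.65). Of the peaks within Jak2, then, the iNKT one passed and neither DP one did.

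Jak3 pairs only with the common gamma chain, the receptor subunit shared by interleukin-2, interleukin-7 and interleukin-15. Its single peak was in iNKT cells, annotated as exon 5 of 5 of one of its transcripts (chr8:71680108-71680287, plus strand). It was 10.3-fold enriched and had a log2 value of -0.166 (FDR 0.76) per the authors' deposited table.

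Tyk2, which serves type I interferon and interleukin-12 receptors, had 4 peaks named after it and none within the gene. All 4 were on the minus strand, upstream of the start of Tyk2 by 2188 to 4221 bases, where no RefSeq gene lies. They were 3608 to 5611 bases past the annotated 3' end of Cdc37, the next gene on that strand, and the authors annotated them as 3' UTR. One iNKT peak of these (chr9:21134388-21134568) passed, with -3.45 on the log2 scale (FDR 0.025) per the authors' deposited table, and the DP peak that shared 91 nt with it had -0.26 (FDR 0.65). The authors' deposited table gave the other iNKT peaks there -2.63 (FDR 0.29) and 0.107 (FDR 0.76). None of these values is counted for Tyk2 here.

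Among the inhibitors, Cish, which binds the beta chain of the interleukin-2 receptor and restrains STAT5, had the most negative value of the peaks within member genes. Its 3' UTR peak in iNKT cells (chr9:107300745-107301314, plus strand) covered 570 nt, was 22.6-fold enriched and fell by 4.12 on the log2 scale, with an FDR of 8.5e-08, per the authors' deposited table. Of all iNKT peaks, 7.72% had a more negative value, and the median among lower iNKT peaks was -3.64. A 61 nt peak in the 5' UTR of Cish (chr9:107296836-107296896), 177 bases into the gene, was 4.01-fold enriched and had -0.585 (FDR 0.76) per the authors' deposited table. No DP peak was listed for Cish.

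Socs3, which blocks signalling through gp130, the shared receptor of the interleukin-6 family, had 4 peaks in iNKT cells, more than any other member. The strongest (chr11:117967003-117967450, minus strand, 448 nt) was 173-fold enriched over input, above 98.6% of iNKT peaks, and fell by 3.07 on the log2 scale, with an FDR of 0.0019, per the authors' deposited table. The next 3' UTR peak upstream (chr11:117967539-117967777) was 6.58-fold enriched and had -0.491 (FDR 0.76, authors' deposited table). The peak annotated in exon 2 of 2 (chr11:117967867-117968075) had 0.585, and the 5' UTR peak over 3 blocks (chr11:117969078-117969809), 73.6-fold enriched, had -0.972 (FDR 0.76 for each, authors' deposited table). One of the 4 passed, and the difference between peaks of the same gene was not tested. In DP thymocytes Socs3 had 1 peak of 90 nt (chr11:117967241-117967330), wholly inside the strongest iNKT peak. The authors' deposited table gave it a 4.31-fold enrichment, near the DP median of 4.7, and -0.0825 on the log2 scale (FDR 0.72).

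Socs1, an inhibitor of interferon gamma and common gamma chain signalling, had 1 peak within it, in iNKT cells (chr16:10784218-10784667, minus strand, 450 nt of a gene of 1729 bases). It was 7.7-fold enriched and had -0.716 on the log2 scale (FDR 0.33) per the authors' deposited table. The other rows named Socs1, 2 per cell type, lay on the plus strand in Clec16a, a neighbouring gene. The authors' deposited table gave these -1.72 and -0.531 in iNKT cells and 1.03 and -0.3 in DP thymocytes, and none passed.

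Socs2, which restrains growth hormone signalling, had no row and no peak by coordinates in either table. Ptpn2 had 1 peak, in DP thymocytes (chr18:67672693-67677764, minus strand, 298 nt in 3 blocks, annotated as exon 7 of 10). It was 3.13-fold enriched and had -0.663 on the log2 scale (FDR 0.48) per the authors' deposited table.

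The 4 lower iNKT peaks lay at similar distances from the ends of their genes. Measured along the genome, they ended 924 bases (Socs3), 1083 bases (Jak1), 1093 bases (Jak2) and 1470 bases (Cish) before the annotated 3' end, in genes of 4258 to 113309 bases. Of the peaks that did not pass, that of Socs1 ended 410 bases before the 3' end and the second 3' UTR peak of Socs3 1460 bases before it. The matching DP peaks of Jak1, Socs3 and Jak2 ended between 1113 and 1182 bases before it. Peaks that did not pass thus also lay in the range of the lower ones. Distances over all 3' UTR peaks were not counted. The 5' UTR peaks and those annotated as exon in iNKT cells lay further away, from 1788 to 10290 bases, and none of these passed.

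**Figure D2:**
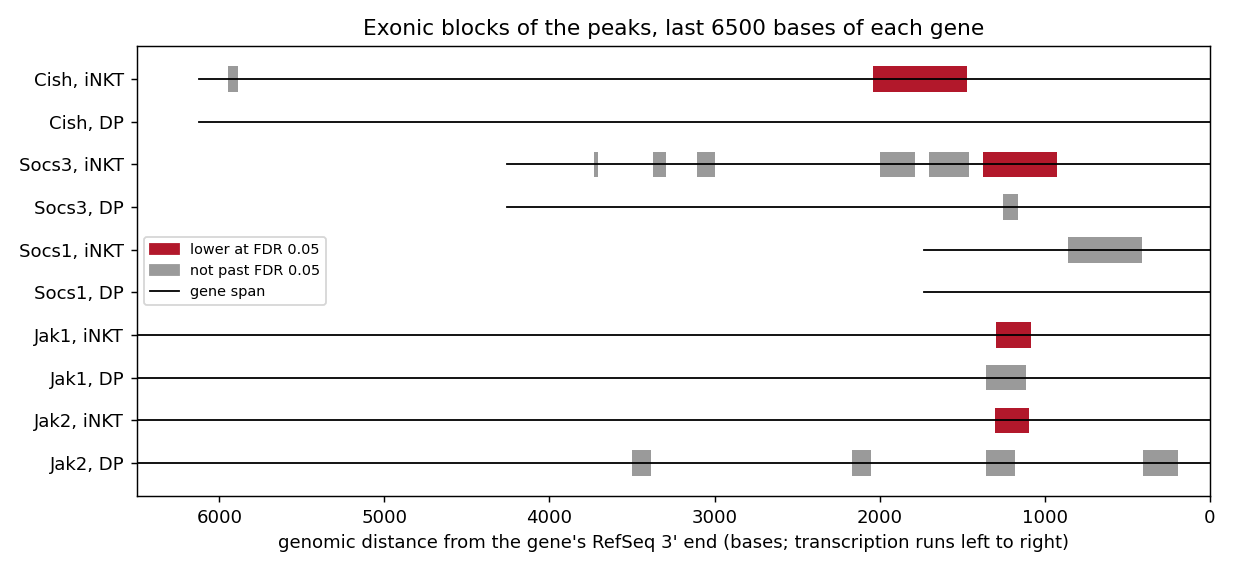
Position of the exonic blocks of each peak (bars) within the last 6500 bases of 5 member genes, as genomic distance from the gene's RefSeq 3' end in bases, with iNKT above DP for each gene; the black line is the gene span and red marks an FDR of at most 0.05. The red iNKT blocks of Cish, Socs3, Jak1 and Jak2 all end between 924 and 1470 bases from the 3' end. Grey blocks of Socs3, Jak1 and Jak2 end in that range too.

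In DP thymocytes no member peak passed. The FDR of the authors' deposited table was at most 0.05 for 0 of the 4 peaks within the gene they were named after, and for 0 of 6 with Jak2. Of all 13450 DP peaks, 0.743% were lower and 0.483% higher. At an unadjusted p of 0.05, 1 of the 4, the exon peak of Jak1, was past the threshold, as were 12.7% of all DP peaks. The median log2 fold change of the 4 peaks was -0.288, against 0.0 over all DP peaks. A count of 0 among so few peaks does not show that methylation was unchanged.

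Where peaks within a member gene shared exonic bases between the cell types, the iNKT value was the more negative in each of 3 pairs. Over all peaks the median was also more negative in iNKT cells, at -0.976 against 0.0 in DP thymocytes. How often this held over all sites listed in both cell types was not counted. In the authors' deposited tables the log2 values were -3.01 in iNKT cells and 0.396 in DP thymocytes for Jak1, -3.37 in iNKT cells and -0.276 in DP thymocytes for Jak2, and -3.07 in iNKT cells and -0.0825 in DP thymocytes for Socs3. The Jak2 pair shared 121 nt, while its DP peak covered 630 nt in 5 exonic blocks. The enrichment over input was also higher in the iNKT table for each pair, most of all for Socs3, at 173 in iNKT cells and 4.31 in DP thymocytes. The median enrichment over all peaks was likewise higher in iNKT cells, at 8.32 against 4.7. The difference between cell types was not tested, since the tables were made separately and hold no replicate values.

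Among the members, as in the iNKT table as a whole, the lower peaks that passed were mostly strong ones. Of the 10 iNKT peaks within member genes, 4 had a peak p of 1e-100 or smaller and all 4 fell, where 64.7% of the 2942 iNKT peaks of that strength were lower. Of the 2 with a peak p from 1e-50 to above 1e-100, in Socs1 and Socs3, 0 passed, where 25.0% of such iNKT peaks were lower. Of the remaining 4 iNKT peaks, 3 had a peak p from 1e-20 to above 1e-50 and 1 above 1e-20, and 0 passed. In those classes 10.8% and 1.31% of all iNKT peaks were lower. All 6 DP peaks had a peak p above 1e-20, a class in which 0.266% of 10508 DP peaks were lower and 0.171% higher. The part of peak strength in these results was not tested.

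**Figure D3:**
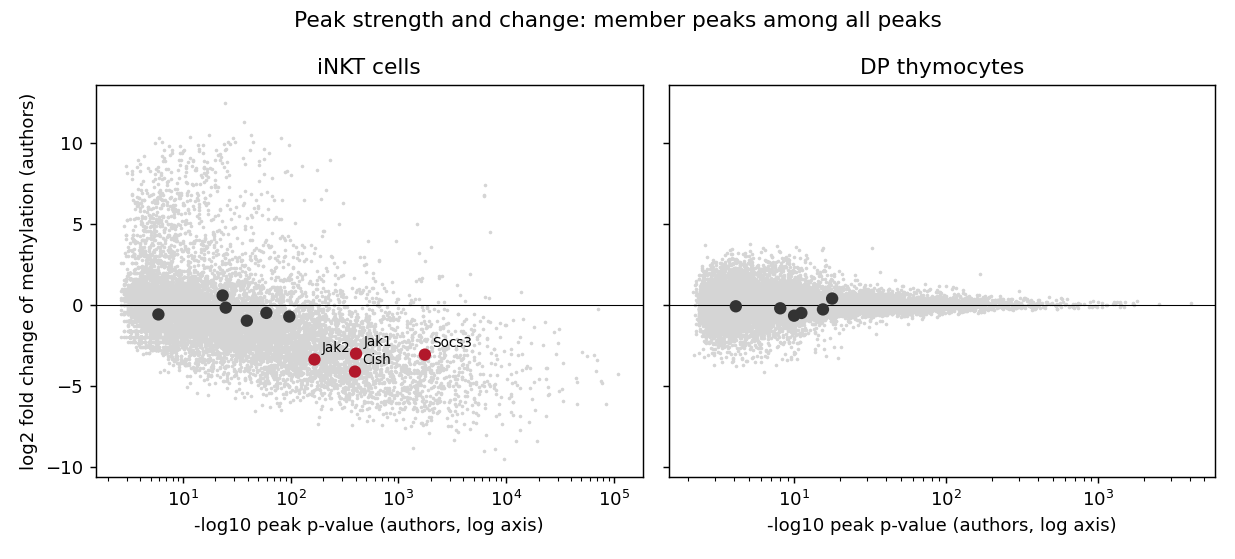
Log2 fold change of methylation (authors' values, vertical axis) against the strength of the peak as −log10 of its p-value (log axis), for all peaks (grey) and for those within member genes (large points, red and named where the FDR was at most 0.05), in iNKT cells (left) and DP thymocytes (right). The 4 red iNKT peaks, with a peak p of 1e-100 or smaller, are the strongest of the members, and the 6 DP peaks all have a peak p above 1e-20.

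Elsewhere in the pathway, lower peaks were listed from receptors to targets in iNKT cells. Of 58 further JAK-STAT genes, 33 had an iNKT peak within the gene. A lower peak passed in 18 of these 33 (54.5%) and a higher one in 5. Of all 5147 genes with an iNKT peak within the gene, 26.8% had a lower one and 9.79% a higher one. The median log2 fold change over the list's peaks was -1.64 in the authors' deposited table. The list was written with earlier results of these data known, so the counts describe it only.

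Receptor genes had a lower peak in 8 of 12 (66.7%), against 26.8% of all genes with an iNKT peak within the gene. A higher peak passed in 2 of the 12, against 9.79% of all such genes. Il4ra, which encodes the interleukin-4 receptor alpha chain, had the smallest FDR, with -6.84 on the log2 scale (FDR 3.2e-52) per the authors' deposited table. Il2rb, the chain that Cish binds, had a lower 3' UTR peak (-1.6, FDR 4e-50) and a higher one annotated as 5' UTR (3.03, FDR 4e-19, authors' deposited table). Il7r likewise carried passing peaks of both signs, 3 lower and 1 higher. The higher one had the smallest FDR (2.26, FDR 4e-27, authors' deposited table). The lower ones had -3.07 (FDR 7.9e-21), -1.19 (FDR 7.9e-18) and -1.88 (FDR 0.01, authors' deposited table). Lower peaks also passed among the STAT genes. The authors' deposited table gave -3.63 for Stat3 and -5.11 for Stat6, while Stat2 had 0.531 (FDR 0.76).

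Of all genes with an iNKT peak within the gene, 26.8% had a lower one. The other brakes of the pathway had iNKT peaks in 11 genes, of which 3 (27.3%, near that share) had a lower one. They were Ptpn6, the phosphatase SHP-1 (-2.24, FDR 6.3e-27), Pias1, an inhibitor of activated STATs (-5.23, FDR 0.0021), and Cbl, a ubiquitin ligase, which also had a higher peak (-3.87 and 4.51), all per the authors' deposited table. Socs5, Socs6 and Socs7, relatives of the members, had iNKT peaks and none passed. Of the SOCS box ligase partners, which join SOCS proteins to the ubiquitin ligase, only Eloc had an iNKT peak within the gene, at 0.322 (FDR 0.76, authors' deposited table). Among STAT target genes 4 of 5 (80.0%) had a lower peak, against the same 26.8% of all genes. A higher peak passed in 2 of these 5, against 9.79% of all genes. The 5 target genes held 10 peaks, and the part of the number of peaks per gene in these shares was not tested. The authors' deposited table gave the cyclin gene Ccnd2 -4.19 (FDR 1.6e-15), the kinase gene Pim1 a lower and a higher peak (-1.79 and 1.62), and the survival gene Mcl1 a higher one (4.46, FDR 3.2e-31).

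In DP thymocytes 31 of the 58 genes had a peak within the gene. One was lower, Il2rg, which encodes the common gamma chain (-0.589, FDR 0.047, authors' deposited table), and 0 were higher. Of all 5246 genes with a DP peak within the gene, 1.68% had a lower one and 0.724% a higher one. Among receptors the next smallest FDRs were those of Ifnar1 (1.04, FDR 0.13) and Ifngr2 (1.79, FDR 0.21), and among targets that of Mcl1 (0.238, FDR 0.071), per the authors' deposited table. The median log2 fold change over the list's DP peaks was 0.182 in the authors' deposited table.

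**Figure D4:**
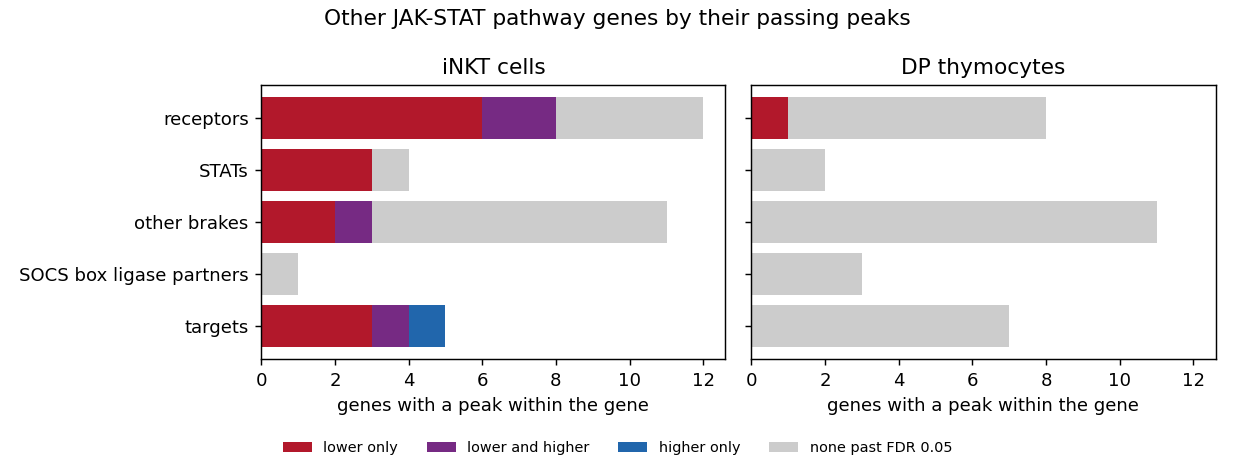
Number of further JAK-STAT pathway genes with a peak within the gene (horizontal axis) by sub-list, split by their passing peaks at an FDR of 0.05, in iNKT cells (left) and DP thymocytes (right). In iNKT cells 18 of 33 genes had a lower peak and 5 a higher one. In DP thymocytes 1 of 31 had a lower peak and 0 a higher one.

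Many rows of both tables lay outside the gene they were named after, those of the members included. Of the rows named after members, 6 of 15 in iNKT cells and 3 of 7 in DP thymocytes did so. Over all rows with a symbol found in RefSeq, the share was 29.1% of 12481 for iNKT cells and 24.2% of 13387 for DP thymocytes. The member rows outside were the 4 named Tyk2, 4 named Socs1, and 1 iNKT row named Jak1 on the plus strand in Raver2 (chr4:101133980-101134040), with 0.322 on the log2 scale (FDR 0.76) per the authors' deposited table.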

How the data were processed

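The authors deposited a peak table and a gene list for each cell type. The submitters' processing notes name the build mm10 and STAR 2.6.0a, HOMER 4.9.1, RSEM 1.3.0, Trim Galore 0.6.5 and FastQC 0.11.5. The names of the deposited tables carry that of the program exomePeak. Its version and settings, and whether replicates were pooled for it, are not stated. RNA was polyadenylated and cut to about 150 nt, per the labels. Per the file headers, the deposited tables hold a p-value per peak, the fold enrichment as a linear ratio, the log2 fold change between genotypes, and log10 values of p and FDR, treated as scores.

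Rows repeated with the same blocks were kept once, which removed 24 iNKT and 5 DP rows. Starts were read as 0-based and are printed 1-based. A peak lay within a gene if it shared at least 1 exonic base with the RefSeq span (GRCm38.p6, the same build as mm10) on its strand, where the strand was known. All 9 symbols matched. The threshold was an FDR of 0.05 for the difference in the authors' deposited table. No test was added, since the tables hold no values per library. Placement and counting were tested on simulated data. Members and lists were chosen with earlier results of these data known. All member rows are named. Of the pathway list, those named are up to 3 genes per cell type and sub-list with the smallest FDR, and genes with passing peaks of both signs. Others were singled out after their values were seen. These are Stat2, Socs5, Socs6, Socs7, Myc and Ifngr1, and in iNKT cells also Bcl2, Ifnar1 and Il2rg. Alternatives were other FDR thresholds, a minimum change, stronger peaks, other placement rules and repeated rows kept. Python 3.11.15 was used with pandas 2.3.3, numpy 2.4.6, SciPy 1.17.1 and matplotlib 3.10.9. Some items are not reported here.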

Additional observations from a re-analysis of the deposited data

How the results depend on the processing

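The count of 3 lower iNKT peaks within Jak1, Socs3 and Cish was the same at an FDR of 0.01 or 0.1, with a minimum absolute log2 change of 1, with a peak FDR of at most 1e-05, with repeated rows kept, and with at least 50% of the peak within the gene. It was 4 of 15 with rows taken by symbol wherever they lay, which adds the Tyk2-named peak, and 4 of 10 by coordinates, which adds Jak2. The Tyk2-named peak (-3.45 on the log2 scale) no longer passed at an FDR of 0.01. The DP count was 0 under each of these. The medians over member peaks ranged from -0.844 to -0.716 in iNKT cells and from -0.494 to -0.241 in DP thymocytes, the last with the peaks within Jak2. The 2 matched pairs that carry a member's symbol were also matched when 50% of the shorter peak had to be shared. No paired analysis was possible because the tables carry no values per replicate, and for the same reason no replicate could be left out. The depth of the libraries is unknown, and its part in the counts was not tested.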

Other observations

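Other lower iNKT peaks of the JAK-STAT list were chosen for description after their values were seen. The survival gene Bcl2 had lower peaks of -4.12 (3' UTR, FDR 9.1e-08) and -3.67 (5' UTR, FDR 0.023) on the log2 scale, and the growth gene Myc had -4.58 and -1.84, all per the authors' deposited table. Among receptors, Ifnar1, a chain of the type I interferon receptor that Tyk2 binds, had -5.63 and -2.21, and Ifngr1, a chain of the interferon gamma receptor that Jak1 binds, had -1.79 (authors' deposited table). Il2rg, the partner of Jak3, had -1.83 (FDR 0.0044, authors' deposited table) in iNKT cells, for a 5' UTR peak (chrX:101268076-101268255). In DP thymocytes a peak annotated as exon (chrX:101267021-101267290) had -0.589 (FDR 0.047, authors' deposited table). These peaks do not overlap, so the values are not of the same site. The difference between cell types was not tested.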
